A study of Mus musculus with 9 samples.

Results

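Notch pathway genes were followed in RNA-seq of mouse embryonic fibroblasts (MEFs). They were taken by symbol: the 4 receptors Notch1, Notch2, Notch3 and Notch4, the ligands Jag1 and Jag2, and the target genes Hes1, Hey1, Hey2 and Heyl. All 10 were found among the 24341 genes listed in each of the 9 samples, and 9 of the 10 had enough reads to be tested. Heyl had no read in any sample. The samples were 3 of wild-type (WT), 3 of Atm-/- and 3 of Sirt6-/- genotype, all of strain C57BL/6 and grown in DMEM with 10% FBS. Atm is a kinase of the DNA damage response and Sirt6 a histone deacetylase, and the study concerned DNA repair and ageing.

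The groups have limits as models. The labels also name P53-/- and Atm-/-P53-/- mice as sources of MEFs without tying them to a sample. The methods of the study list an immortalized Atm-/-; p53-/- line and a Sirt6-/- line from separate laboratories, and do not say which cells were sequenced. Reads of Trp53, the gene of p53, numbered 6563 to 7108 in WT and 9081 to 9218 in Sirt6-/-, but 806, 946 and 928 in Atm-/-. Genotype, line of origin, immortalization and p53 status therefore cannot be told apart here. Sirt6 reads numbered 402 to 487 in WT and 4, 5 and 7 in Sirt6-/-. Atm reads numbered 1536 to 1627 in WT and 3443 to 3768 in Atm-/-, so its RNA does not check that label, and counts per gene do not show which exons were read. The samples held 32187040 to 33837949 counted reads.

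Fibroblast RNA was present in every sample. Of 10 fibroblast markers, 9 had over 20 reads in a sample of each genotype, with Lum at 10 reads or fewer throughout and Thy1 at 1, 33 and 12 reads in Sirt6-/-. Marker sums are given in CPM, here counts scaled to the library total. The fibroblast markers summed to 26100 to 29173 CPM in WT, 9204 to 9452 in Atm-/- and 18854 to 19191 in Sirt6-/-. CPM of single genes, given later, are scaled to the normalized library size instead. The 5 neural and glial markers moved with genotype, from 8.18 to 10.2 CPM in WT to 207 to 218 in Atm-/- and 220 to 240 in Sirt6-/-, with Nes at 102 to 134 reads in WT and 5705 to 6730 in the mutants. The 9 endothelial markers, of interest because vessels are a main site of Notch4 and Hey genes, were low but separated by genotype. They summed to 8.04 to 10.8 CPM in WT, 15.5 to 17.6 in Atm-/- and 5.19 to 7.34 in Sirt6-/-. The separation lay mainly in 1 of the 9, the receptor gene Kdr, at 86 to 135 reads in WT, 330 to 422 in Atm-/- and 4 to 12 in Sirt6-/-. Egfl7 did not follow it, at 158 to 196 reads in WT, 127 to 156 in Atm-/- and 131 to 182 in Sirt6-/-. The 9 pericyte and smooth muscle markers summed to 1352.5 to 1525.5 CPM in WT, 718 to 899 in Atm-/- and 1274 to 1569 in Sirt6-/-. Most of each sum was Acta2, and Rgs5 had at most 2 reads. Epithelial markers summed to 19.5 to 23.9 CPM in WT, 46.2 to 50.9 in Atm-/- and 15.5 to 20.04 in Sirt6-/-. The higher sum in Atm-/- lay mainly in Krt18, at 891 to 1044 reads there against 198 to 268 in WT. Cdh1 was also higher, at 137 to 151 against 65 to 81 reads, and Krt8 was at 344 to 375 against 262 to 318. Epcam (33 to 55 against 32 to 44) and Krt14 (75 to 98 against 74 to 114) overlapped, and Krt5 had at most 6 reads in both. Hematopoietic markers (4 of 5 listed) summed to 10.1 to 11.1 CPM in WT, 3.91 to 4.27 in Atm-/- and 3.56 to 4.23 in Sirt6-/-. The fall lay mainly in Csf1r, at 231 to 252, 21 to 30 and 50 to 96 reads. Cd68 had 93 to 121, 83 to 102 and 38 to 68 reads. Aif1 had reads in Atm-/- alone (6, 17 and 11), and Ptprc had at most 6 in any sample. Skeletal muscle markers reached 0.062 CPM at most. The part of these markers in the results was not tested. In such bulk samples, fewer cells of a type and less RNA per cell cannot be told apart.

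Notch receptors are transmembrane proteins that are switched on by contact with a neighbouring cell. A ligand of the Jagged or Delta-like family pulls on the receptor, ADAM proteases and then gamma-secretase cut it, and the freed intracellular domain enters the nucleus. There it joins the DNA-binding protein Rbpj and a Mastermind (Maml) coactivator, and the complex activates genes of the Hes and Hey families, which encode basic helix-loop-helix repressors. In connective tissue the pathway is known for its part in differentiation of mural cells and in communication between fibroblasts and vessels, and RNA levels of its genes are not a readout of receptor cleavage.

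On the mouse build GRCm38 (mm10), GENCODE places Notch1 on chromosome 2 at 26457903 to 26516663 (minus strand), Notch2 on chromosome 3 at 98013527 to 98150361 (plus), Notch3 on chromosome 17 at 32120820 to 32166852 (minus) and Notch4 on the same chromosome at 34564268 to 34588503 (plus). Jag1 lies on chromosome 2 at 137081456 to 137116644 (minus) and Jag2 on chromosome 12 at 112907819 to 112929776 (minus). Hes1 lies on chromosome 16 at 30064384 to 30067796 (plus), Hey1 on chromosome 3 at 8663359 to 8667256 (minus), Hey2 on chromosome 10 at 30832359 to 30842801 (minus) and Heyl on chromosome 4 at 123233556 to 123249875 (plus). All are protein-coding. Notch1, Notch3 and Notch4 overlap annotated genes on the opposite strand (0610009E02Rik and Gm13568, Gm17276, and Gm20462). Notch2 overlaps Gm42819 and Gm42820 on its own strand. The library protocol does not mark strand, so reads of the overlapping parts could belong to either gene.

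The promoters of the genes that differed most from WT (Notch1 and Jag2), of the other Jagged gene, and of the one Hey gene with a promoter sequence are printed for their letter content, from 250 bases before to 50 after the RefSeq start, on the minus strand of GRCm38.p6. RefSeq promoters were matched for 7 of the 10 genes. A set of 4 short motifs were searched on both strands in all 32851 promoters of this length. These were TGGGAA and the longer GTGGGAA, which contains it and is the core bound by Rbpj, and CACGTG (E-box) and CACNAG (N-box), letters that Hes and Hey repressors bind. In the Notch1 promoter (chr2:26503773-26504072) capitals mark CACNAG, in those of Jag1 (chr2:137116471-137116770) and Jag2 (chr12:112929446-112929745) CG dinucleotides, and in that of Hey2 (chr10:30842734-30843033) GTGGGAA.
Notch1: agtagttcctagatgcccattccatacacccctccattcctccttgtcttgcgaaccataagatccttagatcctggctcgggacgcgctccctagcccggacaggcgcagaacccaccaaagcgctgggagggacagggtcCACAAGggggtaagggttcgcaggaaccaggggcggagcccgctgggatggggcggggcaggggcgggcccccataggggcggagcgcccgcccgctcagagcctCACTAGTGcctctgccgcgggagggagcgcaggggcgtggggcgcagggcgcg
Jag1: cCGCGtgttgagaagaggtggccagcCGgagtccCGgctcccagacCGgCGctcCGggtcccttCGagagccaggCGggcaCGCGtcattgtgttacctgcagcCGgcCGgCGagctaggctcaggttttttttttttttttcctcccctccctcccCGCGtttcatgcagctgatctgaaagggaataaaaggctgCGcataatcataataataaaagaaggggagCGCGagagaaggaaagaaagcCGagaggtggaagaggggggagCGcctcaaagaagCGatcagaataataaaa
Jag2: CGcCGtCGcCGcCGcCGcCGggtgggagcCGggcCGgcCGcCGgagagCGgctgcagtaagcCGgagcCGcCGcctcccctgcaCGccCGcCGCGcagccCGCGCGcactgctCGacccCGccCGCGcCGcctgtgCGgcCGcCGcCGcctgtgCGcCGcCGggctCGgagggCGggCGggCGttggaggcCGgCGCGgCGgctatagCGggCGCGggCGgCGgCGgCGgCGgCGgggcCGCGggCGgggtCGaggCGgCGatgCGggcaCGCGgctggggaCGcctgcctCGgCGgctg
Hey2: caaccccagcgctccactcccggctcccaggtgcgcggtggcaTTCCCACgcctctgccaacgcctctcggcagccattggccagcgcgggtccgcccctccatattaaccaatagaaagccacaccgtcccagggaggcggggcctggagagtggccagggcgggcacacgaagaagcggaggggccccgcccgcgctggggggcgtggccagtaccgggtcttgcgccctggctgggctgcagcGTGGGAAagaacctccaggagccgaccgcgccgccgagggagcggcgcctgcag

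The Hey2 promoter held 2 copies of GTGGGAA in opposite orientations, starting 207 and 4 bases before the start site. At least 1 copy was present in 6.38% of all promoters and at least 2 in 0.256%. Notch1 held 3 CACNAG matches, starting 108, 3 and 1 bases before the start site, the last 2 overlapping on opposite strands. That motif occurred in 42.5% of all promoters, TGGGAA in 25.6% and CACGTG in 7.15%. Jag1, Jag2 and Notch4 held none of the 4 motifs, which says only that these letters are not in the window. Jag2 had 63 CG dinucleotides and 86.0% G and C bases, against 22 and 55.7% for Jag1 and medians of 7 and 52.7% over all promoters. Only 0.030% of promoters had as many CG dinucleotides as Jag2, and 23.1% as many as Jag1. No binding or methylation was measured in this series.

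Within WT MEFs, compared as RPKM (reads scaled by transcript length and depth), Hes1 and Notch2 had the highest levels of the 10 genes, with medians of 13.3 and 12.9 RPKM and ranges that overlapped. Jag1 (7.92) and Jag2 (7.25) followed, also overlapping. Notch1, Hey1, Hey2 and Notch3 lay far lower, between 0.0466 and 0.191 RPKM in single samples, and their neighbours in the order overlapped. Notch4 was below them at a median of 0.0273 RPKM, without overlap with Notch3, and Heyl was listed at 0. In Atm-/- the order of the medians was nearly kept, with Hes1 at 10.1, Notch2 at 9.58 and Jag1 at 4.19 RPKM, but Jag2, at 1.15, lay clear of Jag1. In Sirt6-/- Notch2 stood alone at the top at 24.8 RPKM. Hes1 (3.25), Jag1 (2.40) and Notch1 (2.34) formed an overlapping chain beneath it, and Jag2, at 0.0306 RPKM, was last of the detected genes, its range overlapping only that of Hey2.

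**Figure D1:**
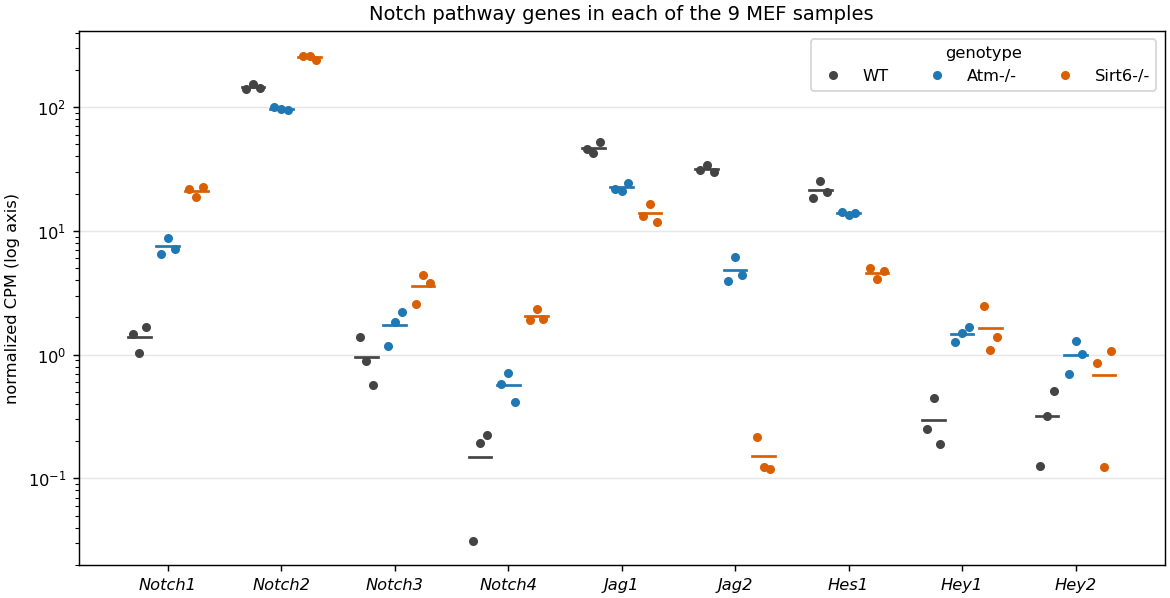
Normalized CPM (log axis) of the 9 detected genes in each sample, with 1 point per sample and a bar at the mean of each genotype of 3 samples. Notch1 rises from 1.02 to 1.68 CPM in WT to 18.9 to 22.5 in Sirt6-/-, while Jag2 falls from 30.0 to 33.8 CPM in WT to 0.120 to 0.215.

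The first comparison asked how the genes differed between Atm-/- and WT MEFs. Of the 9 tested, 4 were higher in Atm-/- (Notch1, Notch4, Hey1 and Hey2), 4 were lower (Notch2, Jag1, Jag2 and Hes1) and Notch3 did not pass the test. Each adjusted p given here comes from the quasi-likelihood test of edgeR, adjusted by Benjamini and Hochberg's method over all genes tested, with a threshold of 0.05. Differences between these cells were widespread, as 68.4% of the 13283 genes tested passed, 34.7% higher and 33.6% lower. At least a 2-fold difference in addition was found for 6 of the 9 and for 22.5% of all genes. The median log2 fold change was 0.86 over the 9 genes and 0.02 over all genes. The median of the 9 is the value of Notch3, which did not pass, between genes that went in opposite directions. Scaling by library totals alone, in place of TMM factors, moved the median of all genes to 0.18 and the split over all genes from 4611 higher and 4469 lower to 6156 and 3326. All 9 genes kept their direction with that scaling, and the median of the 9 was then 1.03.

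Sirt6-/- against WT was the second comparison, with the same WT samples. Here 5 of the 9 genes were higher (the 4 receptors and Hey1), 3 were lower (Jag1, Jag2 and Hes1) and Hey2 did not pass. Of the 13206 genes tested, 76.6% passed, 39.2% higher and 37.4% lower. At least 2-fold differences were found for 7 of the 9 and for 29.3% of all genes. The median log2 fold change was 1.11 over the 9 genes and 0.02 over all genes, the latter 0.11 with library totals. Here the median of the 9 is the value of Hey2, which did not pass.

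Compared directly, Atm-/- had 3 of the 9 genes higher than Sirt6-/- (Jag1, Jag2 and Hes1), 4 lower (all receptors), and Hey1 and Hey2 not past the threshold. Over the 13460 genes tested 75.8% passed, 38.0% higher and 37.8% lower. A difference of at least 2-fold was found for 6 of the 9 and for 25.5% of all genes. The median log2 fold change was -0.14 over the 9 genes, the value of Hey1, which did not pass, and 0.00 over all genes. The shares of genes past the test in the 3 comparisons set the scale for these counts, since most expressed genes differed between any pair of the lines. Nothing in the labels says that the 3 samples of a genotype came from separate animals or cultures, so the p-values measure only the spread between these samples, which may be technical.

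**Figure D2:**
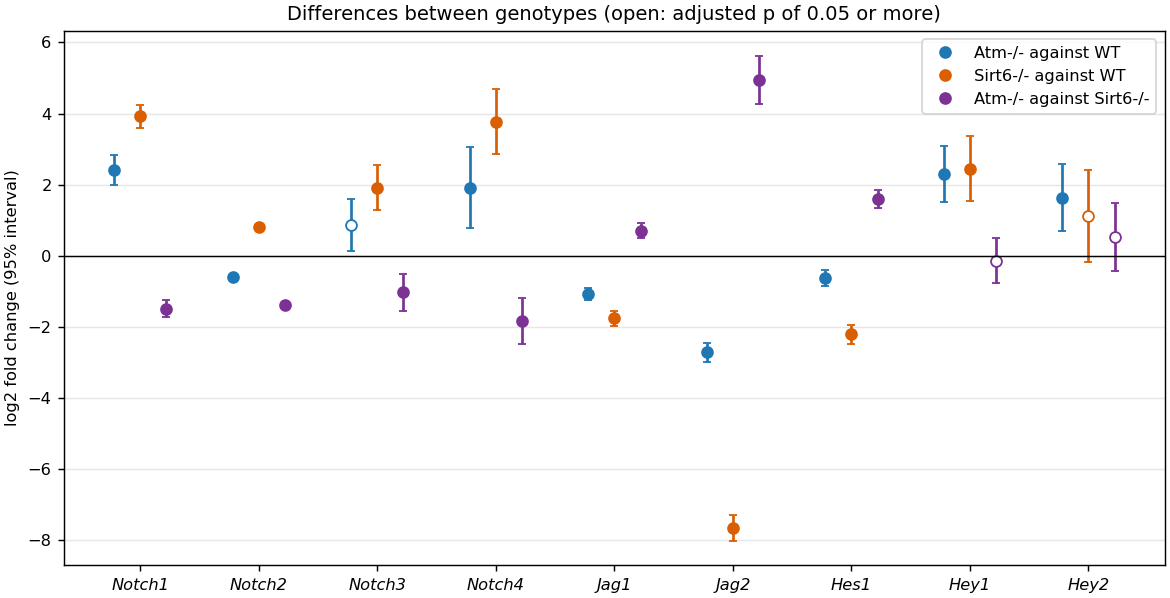
Log2 fold changes of the 9 tested genes with 95% intervals in the 3 comparisons, which share samples. Open points did not pass the test, and the intervals of Hey1 and Hey2 between the mutants and of Hey2 in Sirt6-/- against WT include 0.

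Among the receptors, Notch2, the broadly expressed family member, was by far the most abundant. It had 4490, 4823 and 4513 reads in WT, 3448, 3358 and 3234 in Atm-/- and 8519, 8423 and 8069 in Sirt6-/-. The 3 genotypes did not overlap, Atm-/- being lowest and Sirt6-/- highest. Normalized levels were 146 ± 7.12, 96.9 ± 2.18 and 255 ± 10.9 CPM (SD, n = 3 each). Notch2 was 1.51-fold below WT in Atm-/- (log2 fold change -0.60, SE 0.05, adjusted p = 8.1e-08) and 1.74-fold higher in Sirt6-/- than in WT (0.80, SE 0.05, adjusted p = 2.3e-09). Its direction against WT was thus opposite in the 2 mutants, and it was 2.61-fold lower in Atm-/- than in Sirt6-/- (-1.39, SE 0.04, adjusted p = 7.2e-17).

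Notch1, the receptor known from T-cell leukaemia and from vessel development, was low in WT, with 47, 32 and 53 reads. The counts were 227, 309 and 242 for Atm-/- and 717, 613 and 749 for Sirt6-/-. No sample of a genotype overlapped with another genotype, and the levels were 1.39 ± 0.337, 7.50 ± 1.18 and 21.1 ± 1.91 CPM (SD, n = 3 each). Notch1 was 5.35-fold above WT in Atm-/- (log2 fold change 2.42, SE 0.21, adjusted p = 1.4e-07) and 15.1-fold higher in Sirt6-/- (3.92, SE 0.16, adjusted p = 1.7e-11). Between the mutants it was 2.80-fold lower in Atm-/- (-1.49, SE 0.12, adjusted p = 3.0e-10).

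Notch3, which marks pericytes and vascular smooth muscle, had 44, 28 and 18 reads in WT and 41, 64 and 75 in Atm-/-, and these groups overlapped. Its log2 fold change in Atm-/- was 0.86 (SE 0.37, 95% interval 0.14 to 1.59), with an adjusted p of 0.0503. The call depended on single samples, being 1.24 (adjusted p = 0.0167) without WT 1 and 1.09 (adjusted p = 0.0305) without Atm-/- 1. It passed the threshold in 9 of 17 alternatives, whose adjusted p ran from 0.0167 to 0.191. In Sirt6-/- Notch3 had 84, 142 and 126 reads, all above WT, and was 3.76-fold higher than in WT (1.91, SE 0.32, adjusted p = 8.3e-05). Its level was 2.05-fold lower in Atm-/- than in Sirt6-/- (-1.03, SE 0.26, adjusted p = 0.0013). The 9 pericyte and smooth muscle markers were mixed beside Notch3. The proteoglycan gene Cspg4 stood at 131 to 183 reads in WT, 843 to 917 in Atm-/- and 7633 to 7686 in Sirt6-/-, and Mcam was also higher in both mutants (log2 fold changes 0.98 and 0.36). The contractile genes Acta2 (-1.06 and -0.32) and Cnn1 (-1.14 and -1.88) were lower in both, and Des was lower in Sirt6-/- (-2.11) and at -0.66 (adjusted p = 0.17) in Atm-/-. Myh11 had at most 13 reads, and Rgs5, Kcnj8 and Abcc9 at most 6.

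Notch4, best known from endothelium, was the scarcest receptor. It had 1, 6 and 7 reads in WT, 20, 25 and 14 in Atm-/- and 62, 76 and 65 in Sirt6-/-, again in 3 groups that did not overlap. The fitted differences from WT were 3.75-fold in Atm-/- (log2 fold change 1.91, SE 0.58, adjusted p = 0.0095) and 13.6-fold in Sirt6-/- (3.77, SE 0.47, adjusted p = 3.6e-06). Of the endothelial markers, Pecam1 (0 to 10 reads), Cdh5 (2 to 13), Tek (0 to 8), Emcn (0 to 2) and Tie1 (0) were at or near 0 in every sample. Erg had 0 reads in WT, 10, 0 and 0 in Atm-/- and 25, 12 and 25 in Sirt6-/-, and Esam had 0 to 7, 11 to 13 and 3 to 10. Kdr, given above, was higher in Atm-/- and lower in Sirt6-/-, and Egfl7 had 127 to 196 reads over all samples. Notch4 was 3.60-fold lower in Atm-/- than in Sirt6-/- (-1.85, SE 0.33, adjusted p = 3.8e-05).

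Both the sum and the makeup of the receptor RNA differed between genotypes. In RPKM the 4 receptors summed to 13.4 ± 0.590 in WT, 10.8 ± 0.141 in Atm-/- and 27.3 ± 1.06 in Sirt6-/- (SD, n = 3 each). RPKM is scaled by depth without the TMM factors that the fold changes use, so sums of different genotypes are on another scale than those. Notch2 made up 98.0% ± 0.379 of the sum in WT, 89.4% ± 1.65 in Atm-/- and 89.0% ± 0.852 in Sirt6-/-. Notch1 took 1.04% ± 0.286, 7.66% ± 1.18 and 8.20% ± 0.924, and the mutants differed in that share by less than either SD. Notch3 and Notch4 together stayed a small part in each genotype, at means of 0.846% and 0.157% in WT, 2.13% and 0.832% in Atm-/- and 1.66% and 1.15% in Sirt6-/-. These shares are descriptions and carry no test.

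**Figure D3:**
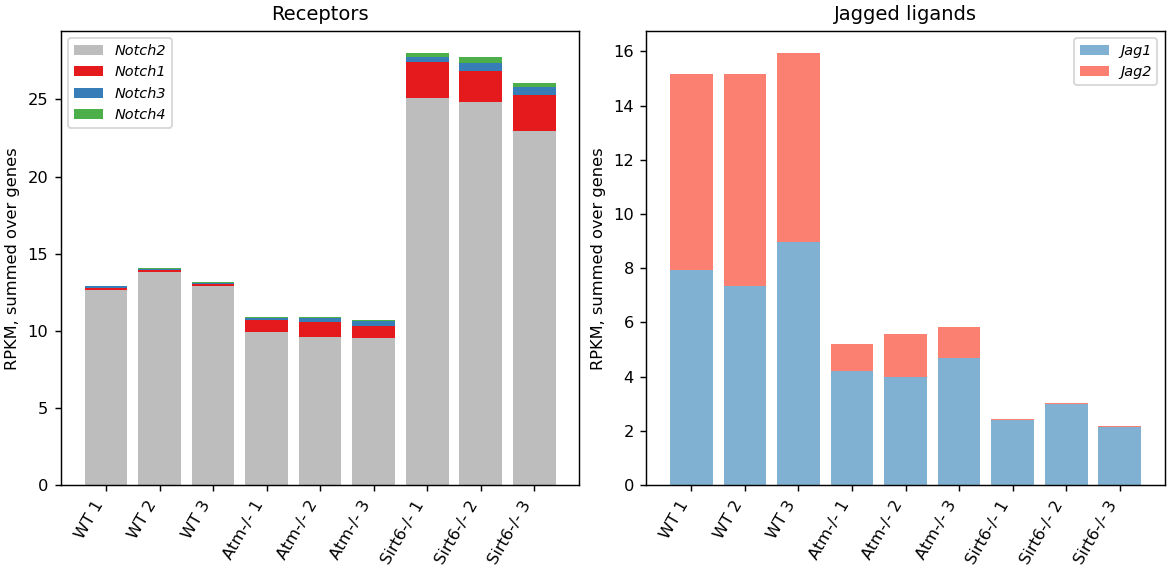
RPKM, without TMM factors, of the receptors (left) and of the Jagged ligands (right), stacked by gene in each of the 9 samples. Notch2 fills most of every receptor bar, and the Jagged bars shrink from a mean of 15.4 RPKM in WT to 5.54 in Atm-/- and 2.56 in Sirt6-/-, where Jag2 is barely visible.

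Both Jagged ligands were lower in each mutant. Jag1, the ligand mutated in Alagille syndrome, had 1473, 1338 and 1639 reads in WT, 760, 730 and 831 in Atm-/- and 427, 533 and 397 in Sirt6-/-. The groups were ordered without overlap. Jag1 was 2.11-fold lower in Atm-/- (log2 fold change -1.07, SE 0.09, adjusted p = 6.3e-08) and 3.40-fold lower in Sirt6-/- than in WT (-1.76, SE 0.11, adjusted p = 1.9e-09). Between the mutants it was 1.63-fold higher in Atm-/- (0.71, SE 0.11, adjusted p = 6.2e-06).

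Jag2 showed the widest differences of the 9 genes. It had 995, 1056 and 944 reads in WT, 137, 214 and 150 in Atm-/- and 7, 4 and 4 in Sirt6-/-. Its levels were 31.6 ± 1.93, 4.83 ± 1.13 and 0.153 ± 0.0537 CPM (SD, n = 3 each), a stepwise separation of the 3 genotypes. Jag2 was 6.58-fold below WT in Atm-/- (log2 fold change -2.72, SE 0.13, adjusted p = 2.1e-10). In Sirt6-/- the fitted difference was 202-fold (-7.66, SE 0.18, adjusted p = 2.8e-14), resting on 15 reads in all 3 samples together. Atm-/- exceeded Sirt6-/- by 31.1-fold (4.96, SE 0.34, adjusted p = 3.8e-11).

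Jag1 and Jag2 thus moved unequally. Jag2 made up 47.8% ± 3.92 of the summed Jagged RPKM in WT, 22.6% ± 5.07 in Atm-/- and 1.51% ± 0.600 in Sirt6-/-. The ratio of summed Jagged RPKM to summed receptor RPKM was 1.15 ± 0.0678 in WT, 0.511 ± 0.0341 in Atm-/- and 0.0937 ± 0.0138 in Sirt6-/- (SD, n = 3 each). In Atm-/- the ratio was low with both sums below WT, and in Sirt6-/- with a receptor sum above WT.

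Of the target genes, Hes1 and Hey1 differed from WT in opposite directions. Hes1, a repressor that holds back differentiation, had 590, 788 and 644 reads in WT, 494, 473 and 473 in Atm-/- and 162, 133 and 158 in Sirt6-/-, with no overlap between genotypes. It was 1.54-fold lower in Atm-/- (log2 fold change -0.63, SE 0.11, adjusted p = 0.00018) and 4.63-fold lower in Sirt6-/- than in WT (-2.21, SE 0.14, adjusted p = 1.7e-09). Its level was 3.03-fold higher in Atm-/- than in Sirt6-/- (1.60, SE 0.12, adjusted p = 2.4e-10).

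Hey1, a repressor known from heart and vessel development, had 8, 14 and 6 reads in WT, 44, 52 and 57 in Atm-/- and 80, 35 and 46 in Sirt6-/-. Every mutant sample lay above every WT sample, and the mutants overlapped each other. Hey1 was 4.92-fold higher in Atm-/- (log2 fold change 2.30, SE 0.40, adjusted p = 0.00015) and 5.48-fold higher in Sirt6-/- than in WT (2.45, SE 0.46, adjusted p = 0.00021). The direct difference was -0.14 with a 95% interval of -0.78 to 0.49 (adjusted p = 0.70), and it was 0.27 (adjusted p = 0.51) without Sirt6-/- 1, the sample with 80 reads.

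Hey2, which carries the 2 GTGGGAA copies printed above, had 4, 10 and 16 reads in WT and 24, 45 and 34 in Atm-/-. All Atm-/- samples were above WT, a 3.09-fold difference (log2 fold change 1.63, SE 0.48, adjusted p = 0.0079). In Sirt6-/- it had 28, 4 and 36 reads, so that 1 sample lay at the lowest WT value and the other 2 above WT. The log2 fold change against WT was 1.11 (SE 0.66, 95% interval -0.18 to 2.40, adjusted p = 0.14), and 1.60 (adjusted p = 0.019) without Sirt6-/- 2. Atm-/- and Sirt6-/- differed by 0.53 (95% interval -0.433 to 1.496, adjusted p = 0.33). Heyl, the remaining Hey gene, was at 0 reads in all samples, which allows up to 3 reads a sample by counting error.

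The rest of the pathway was followed with a list of 63 genes, from ligands to nuclear cofactors. In Atm-/- against WT 54 were tested, of which 22 were higher, 17 lower and 15 not past the test, with a median log2 fold change of 0.11. Those past the test were 72.2% of the list genes tested, against 68.4% of all genes. In Sirt6-/- against WT 53 were tested, with 25 higher, 20 lower and 8 not past (84.9% past, against 76.6% of all genes), and a median of 0.12. Atm-/- against Sirt6-/- gave 23 higher, 25 lower and 6 not past of 54 (88.9% past, against 75.8% of all genes), and a median of -0.09. At least 2-fold differences were found for 8, 13 and 7 of them, or 14.8%, 24.5% and 13.0% of those tested, against 22.5%, 29.3% and 25.5% of all genes given above.

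The other ligands went in opposite directions in the mutants. Dll1, a Delta-like ligand, had 34, 30 and 29 reads in WT, 122, 90 and 74 in Atm-/- and 7, 7 and 8 in Sirt6-/-, with no overlap. Its log2 fold change was 1.48 (adjusted p = 0.00028) in Atm-/- and -2.11 (adjusted p = 0.00036) in Sirt6-/- against WT. Dlk1, a Delta-related protein without the domain that binds Notch receptors in Delta, had 327, 303 and 283 reads in WT, 930, 1146 and 923 in Atm-/- and 2, 10 and 9 in Sirt6-/-. It was higher in Atm-/- (1.58, adjusted p = 5.4e-09) and lower in Sirt6-/- (-5.47, adjusted p = 2.8e-10). Dlk2 gave 0.30 (adjusted p = 0.026) and -1.26 (adjusted p = 6.9e-07). Dll3 and Dll4 had at most 5 and 4 reads and were not tested.

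Ubiquitin ligases that let ligands be endocytosed were split. Neurl1a had 16, 16 and 18 reads in WT, 268, 306 and 336 in Atm-/- and 157, 117 and 205 in Sirt6-/-, and was higher in both mutants (log2 fold changes 4.04, adjusted p = 3.9e-10, and 3.19, adjusted p = 1.1e-07). Its relative Neurl1b was lower in both (-1.67, adjusted p = 7.8e-08, and -2.54, adjusted p = 3.3e-09). Mib2 was higher in both (0.56, adjusted p = 0.0012, and 1.41, adjusted p = 1.5e-08). Mib1, the most abundant of these ligases in WT at 49.9 ± 1.63 CPM (SD, n = 3), was slightly higher in Atm-/- (0.20, adjusted p = 0.012) and lower in Sirt6-/- (-0.51, adjusted p = 0.00020).

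Of the tested genes for receptor glycosylation and processing, Lfng and Psen2 alone passed with at least a 2-fold difference from WT, both in Sirt6-/-. Lfng, a glycosyltransferase that tunes which ligand a receptor answers to, was lower in Atm-/- (log2 fold change -0.61, adjusted p = 1.3e-05) and in Sirt6-/- (-1.85, adjusted p = 1.6e-09). Of the gamma-secretase genes, Psen2 fell in both mutants (-0.76, adjusted p = 0.00058, and -1.19, adjusted p = 1.8e-05). Ncstn (-0.48) and Aph1a (-0.40) were lower in Atm-/-, and in Sirt6-/- Ncstn was lower (-0.14) and Aph1a higher (0.20). Psenen did not pass against WT (-0.09 and 0.19), nor did Aph1b (-0.20 and -0.02) and Aph1c (-0.04 and 0.52), whose near-identical sequences make their separate counts uncertain.

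In the nuclear complex, Rbpj, the DNA-binding partner of the cleaved receptor, was higher in both mutants, with levels of 146 ± 11.7 CPM in WT, 290 ± 4.30 in Atm-/- and 425 ± 5.70 in Sirt6-/- (SD, n = 3 each). Its log2 fold changes were 0.98 (SE 0.05, adjusted p = 7.7e-10) and 1.54 (SE 0.06, adjusted p = 2.8e-12). Maml3 had 22, 26 and 19 reads in WT, 136, 125 and 120 in Atm-/- and 105, 108 and 139 in Sirt6-/-, and was higher in both (2.36, adjusted p = 1.1e-06, and 2.33, adjusted p = 1.9e-06). The more abundant Maml1 was higher in Atm-/- (0.34, adjusted p = 0.00019) and at -0.11 in Sirt6-/- (adjusted p = 0.16). Maml2 was at 0.15 (adjusted p = 0.091) in Atm-/- and higher in Sirt6-/- (0.39, adjusted p = 0.00014). Kat2b, an acetyltransferase recruited by the complex, was lower in both (-1.55, adjusted p = 1.4e-10, and -2.32, adjusted p = 3.1e-12).

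Among the repressive partners, the Groucho-family corepressor gene Tle1 had 137, 121 and 174 reads in WT, 1317, 1377 and 1405 in Atm-/- and 1009, 875 and 1001 in Sirt6-/-. It was higher in both mutants (log2 fold changes 3.11, adjusted p = 8.9e-12, and 2.68, adjusted p = 6.2e-11). Tle2 was higher mainly in Sirt6-/- (2.64, adjusted p = 2.4e-11, against 0.52, adjusted p = 0.0080, in Atm-/-), and it differed between the mutants by -2.11 (adjusted p = 1.9e-13). Tle3, the most abundant of the 4 Tle genes in WT at 104 ± 11.0 CPM (SD, n = 3), was lower in both mutants (-0.76, adjusted p = 2.8e-07, and -0.45, adjusted p = 3.2e-05). Tle4 was at -0.11 (adjusted p = 0.24) in Atm-/- and lower in Sirt6-/- (-0.65, adjusted p = 1.7e-05). Nrarp, a feedback inhibitor that is itself a Notch target, had 12, 6 and 4 reads in WT, 64, 45 and 66 in Atm-/- and 2, 2 and 0 in Sirt6-/-. It was higher in Atm-/- than in WT (2.84, adjusted p = 3.9e-05) and had too few reads to be tested in Sirt6-/- against WT. Of the other Hes genes Hes6 alone was tested, at 0.34 (adjusted p = 0.011) in Atm-/- and -0.32 (adjusted p = 0.036) in Sirt6-/-. Hes2 and Hes5 had no read, and Hes3 and Hes7 at most 2 and 11.

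**Figure D4:**
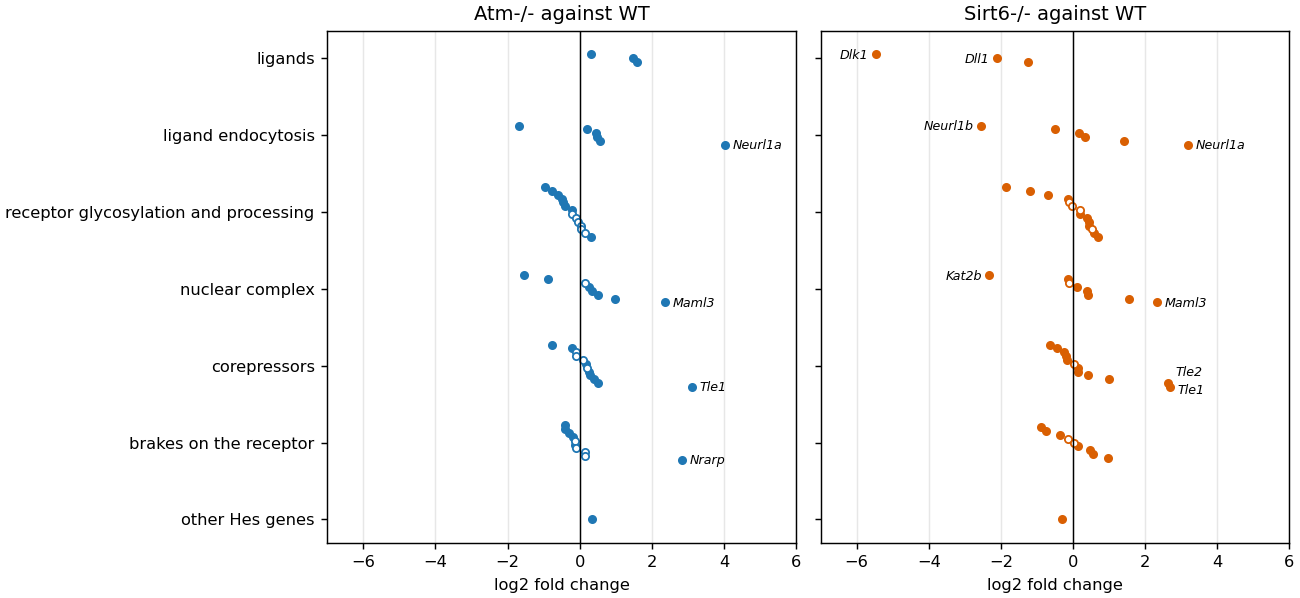
Log2 fold changes of the tested genes of the 63-gene list, by role, in Atm-/- (left) and Sirt6-/- (right) against the same WT samples. Filled points passed the test and open points did not, and genes beyond 2 in either direction are named, such as Neurl1a at 4.04 and Dlk1 at -5.47.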

How the data were processed

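RNA was enriched with oligo(dT) beads, fragmented and copied from random primers, with no step that marks strand. The deposited tables, 1 per sample, list read counts per gene, whole numbers that the authors did not normalize. They also list RPKM, which the authors computed from transcript length and depth. The labels name build mm10; the aligner and counter are not given in the sources used here. Counts were fitted for each pair of genotypes alone in edgeR 4.0.16 (R 4.3.3), with filterByExpr, TMM factors and the quasi-likelihood test. SE is the absolute log2 fold change over the square root of F. The intervals called 95% are 1.96 SE to each side, a normal approximation that is somewhat narrower than the test itself would give. Levels between genes were compared in RPKM, as were the sums of receptors and of Jagged ligands, without TMM factors. Loci are from GENCODE M21, which held 95.2% of the listed symbols. No samples of a genotype agreed within sampling noise (chi-square per gene of 5.11 or more). The fits were tested on simulated counts in which few genes differed, all of them well covered. That test does not cover genes with few reads or differences as widespread as those found here. Alternatives were DESeq2 1.42.0, limma 3.58.1 on log2 RPKM, the exact test, other scalings and filters, a fit of all 9 samples, the replicate block, and each sample left out. Named were all members and, of the 63-gene list, genes past the threshold and 2-fold from WT, Rbpj, Maml, gamma-secretase and Dll genes, with 1 item not reported here; other genes named were chosen after their values were seen. Members and lists were chosen with earlier results of these data known. Samples with the same number did not deviate together (r from -0.015 to 0.059).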

Additional observations from a re-analysis of the deposited data

How the results depend on the processing

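Of the log2 fold changes of single genes under the alternatives, 438 kept their direction and side of the threshold, 10 gained the threshold, 1 lost it and 1 reversed. Those that gained it were Notch3 in Atm-/- against WT under 9 alternatives and Hey2 in Sirt6-/- against WT without Sirt6-/- 2. Notch4 in Atm-/- against WT lost it with limma on log2(RPKM + 1) (0.09, adjusted p = 0.12), a scale that understates low genes and also gave 0.68 for Notch1. Hey1 between the mutants reversed to 0.27 without Sirt6-/- 1, with a range of -0.37 to 0.27 over the samples left out.

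Requiring at least 10 counts in every sample leaves out genes that are near 0 in a genotype. In Atm-/- against WT, Notch4, Hey1 and Hey2 were then not tested and Notch3 passed, so that 2 genes were higher (Notch1 and Notch3) and 3 at least 2-fold, with 1838 of all genes at least 2-fold in place of 2983. In Sirt6-/- against WT, Notch4, Jag2, Hey1 and Hey2 were not tested. All 5 genes still tested passed, 3 of them higher and 4 at least 2-fold, with 2577 of all genes at least 2-fold in place of 3872. Between the mutants 2282 of all genes were at least 2-fold in place of 3433. The filter also lowers the number of genes tested, so these counts are not shares of the same set. Shares of all genes under this filter are not given. The counts of the pathway genes under it therefore have no background and are not a result particular to them. Leaving out single samples gave 8 to 9 genes past the threshold in each comparison with WT, and 7 between the mutants. The counts at least 2-fold ran from 5 to 7 in Atm-/- against WT, 7 to 8 in Sirt6-/- against WT and 5 to 6 between the mutants. Shares of all genes are not given for each sample left out. With all samples they were 68.4%, 76.6% and 75.8% past the threshold, and 22.5%, 29.3% and 25.5% at least 2-fold. With the replicate block, 8 genes passed in each comparison with WT and 7 between the mutants. Of the 13283, 13206 and 13460 genes tested in the 3 comparisons, 8833, 10041 and 10157 passed with the block. No call of the 9 genes changed with the block.

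Depth limits Notch4, Hey1 and Hey2 most, with 1 to 16 reads in WT samples, and Jag2 in Sirt6-/-.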

Other observations

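The genes whose levels followed those of the pathway genes most closely over the 9 samples were, for Notch1, Mapk3, Esyt1 and 4930452B06Rik (Pearson r 0.997 each, on log2 of CPM plus 0.5). Mapk3, the kinase Erk1, stood at 60.2 CPM in WT, 114 in Atm-/- and 179 in Sirt6-/-. For Jag2 they were Tmem151a, Tm4sf1 and Crip2 (r 0.998, 0.997 and 0.997), with Crip2 at 122, 27.1 and 3.40 CPM. Hes1 was followed by Thbd, the thrombomodulin gene, at 9.75, 4.05 and 0.295 CPM (r 0.996), Noc2l and Enc1. Jag1 was followed by Tmod3, Fam118b and Luc7l2, Notch2 by Phldb1, Col23a1 and Cebpd, and Notch4 by Clmp, Depdc5 and Calcrl (r of 0.992 or more). For Hey1 (Sart1, Mtor and BC030499), Notch3 (Ormdl3, Rbm8a and Galt) and Hey2 (Tsta3, Sertad1 and Zfp628) the highest r were 0.988, 0.981 and 0.911. With 9 samples in 3 groups that share line and genotype, many genes can share a pattern, and how many did varied by gene. Of 13756 genes, 71 had r above 0.99 with Notch1, 98 with Jag2, 49 with Hes1, 25 with Notch2, 10 with Notch4 and 5 with Jag1. None did with Hey1, Notch3 or Hey2, for which 23, 14 and 0 genes had r above 0.95.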
